A study of Mus musculus with 15 samples.

Results

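Growth factor receptors drive the kinase ERK through Ras, Raf and MEK, and active ERK in turn induces genes whose products restrain the same route. Among these are dual-specificity phosphatases, which remove the activating phosphates from MAP kinases, and the Sprouty and Spred proteins, which act upstream at receptors, Ras and Raf. ERK also induces the ETS factors Etv4 and Etv5, which carry its output to transcription. In melanoma, where the route is commonly held active, several of these genes are read as a measure of ERK output. The genes described here are Dusp1, Dusp4, Dusp5, Dusp6, Spry1, Spry2, Spry4, Spred1, Etv4 and Etv5, 10 in all. They were chosen by name for these roles, with earlier results of these data known. Of these 10 genes, 6 were listed in all 5 groups of the deposited count tables and were among the 12721 genes tested together: Dusp1, Dusp4, Dusp6, Spry1, Spry2 and Spred1. Dusp5, a nuclear phosphatase specific for ERK, the Sprouty gene Spry4 and the factors Etv4 and Etv5 have no row in the tables analysed here by symbol or by gene ID, so no level is given for these 4 genes.

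RNA was sequenced from B16.F10 cells, a pigmented mouse melanoma line, and 1% oxygen was common to all 15 libraries, which form 5 groups of 3. Hif1a_siRNA_Dox cells received siRNA against Hif1a as lipoplexes (25 nM) and, 24 h later, doxorubicin (0.25 µM for 24 h). Dox cells received the same doxorubicin treatment with no siRNA given in their labels, Hif1a_siRNA cells the Hif1a siRNA alone (25 nM), NC_siRNA cells a negative control siRNA (25 nM), and Control cells neither agent. Doxorubicin is an anthracycline that poisons topoisomerase II, and Hif1a encodes the oxygen-regulated subunit of a hypoxia-inducible transcription factor. All groups are a single cell line. The time from siRNA to harvest in the groups without the drug is not given in the sources used here, and a group with negative control siRNA and doxorubicin was not analysed here, so transfection and Hif1a knockdown cannot be told apart in a comparison of Hif1a_siRNA_Dox with Dox.

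The libraries held 23825110 to 28734303 counted reads. Levels are CPM, the reads counted on a gene brought to a common library size with TMM scaling, which corrects for sequencing depth but not for gene length. The targeted gene Hif1a averaged 13.1 ± 1.35 CPM in Hif1a_siRNA_Dox and 142 ± 8.91 CPM in Dox, and 17.2 ± 1.57 CPM in Hif1a_siRNA and 274 ± 13.5 CPM in NC_siRNA (SD, n = 3 libraries each), against 217 ± 13.2 CPM in Control. The 2 Hif1a siRNA groups therefore stood apart from all others as labelled. All 7 melanocyte lineage markers had rows. None of the 5 leukocyte, 3 endothelial or 4 epithelial markers had one, and of 4 fibroblast markers Col1a1 and Pdgfra had rows while Col1a2 and Dcn did not. In bulk RNA, fewer cells of a type and less RNA per cell cannot be told apart.

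The 250 bases before the annotated start are shown for 3 of the listed genes. Dusp1 was taken because its window held the most of the motifs searched. Dusp6 spanned the widest range of levels, and Spred1 moved against the others with doxorubicin. No level or test below draws on these windows. They are RefSeq promoters of GRCm38.p6, at chr17:26508473-26508722 (minus strand) for Dusp1, chr10:99262981-99263230 (plus strand) for Dusp6 and chr2:117120821-117121070 (plus strand) for Spred1, and capitals mark any motif found.
Dusp1: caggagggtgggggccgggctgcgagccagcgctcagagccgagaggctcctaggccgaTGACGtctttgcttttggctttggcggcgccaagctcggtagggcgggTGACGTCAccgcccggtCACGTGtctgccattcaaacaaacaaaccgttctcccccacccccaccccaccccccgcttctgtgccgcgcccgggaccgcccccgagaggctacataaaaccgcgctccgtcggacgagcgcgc
Dusp6: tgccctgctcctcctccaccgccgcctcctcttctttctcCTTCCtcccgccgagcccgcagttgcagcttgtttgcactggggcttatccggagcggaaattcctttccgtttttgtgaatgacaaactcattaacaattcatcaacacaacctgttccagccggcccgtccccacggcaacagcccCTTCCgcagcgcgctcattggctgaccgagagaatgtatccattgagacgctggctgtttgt
Spred1: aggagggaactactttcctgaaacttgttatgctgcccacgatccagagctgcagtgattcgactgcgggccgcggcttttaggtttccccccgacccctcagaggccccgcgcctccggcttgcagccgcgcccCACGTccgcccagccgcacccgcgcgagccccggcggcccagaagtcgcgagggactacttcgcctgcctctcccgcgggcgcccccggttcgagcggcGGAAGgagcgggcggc
The motifs were searched on both strands: TGACGTCA, the site of CREB and ATF factors, and the shorter TGACG within it, the hypoxia response cores ACGTG and GCGTG, the ETS cores CCGGAA and GGAAG, and the AP-1 site TGANTCA. Dusp1 held TGACGTCA beginning 143 bases before the start, TGACG at 191, and ACGTG on both strands at 126 and 125, where the matches overlap. TGACGTCA itself also counts as TGACG on either strand, at 143 and at 140. Dusp6 held GGAAG on the minus strand at 210 and 62, and Spred1 held ACGTG on the minus strand at 115 and GGAAG at 16. The window of Spry1 held GCGTG at 86 and 48, and that of Spry2 held none of these letters. The shares of all 32817 promoters of this length with a match were 1.55% for TGACGTCA, 17.7% for TGACG, 16.6% for ACGTG, 28.1% for GCGTG, 12.0% for CCGGAA, 64.1% for GGAAG and 6.75% for TGANTCA. Of the 6 listed genes, 5 matched an entry of the promoter table, and Dusp4 did not. A match describes letters in this window and shows no binding.

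Dusp6 (gene ID 67603, chromosome 10, 99263231 to 99267489) encodes a cytoplasmic phosphatase that acts on ERK in preference to other MAP kinases. It had 43.8, 43.4 and 46.6 CPM in the Hif1a_siRNA_Dox libraries and 31.9, 37.1 and 33.4 CPM in Dox. Without doxorubicin it had 5.32, 5.92 and 4.63 CPM in Hif1a_siRNA, 1.30, 1.47 and 1.90 CPM in NC_siRNA, and 2.78, 3.57 and 2.94 CPM in Control. Every library with doxorubicin lay above every library without it, and no neighbouring groups overlapped in the order Hif1a_siRNA_Dox, Dox, Hif1a_siRNA, Control, NC_siRNA. The highest group mean was 28.7-fold the lowest, the widest range among the 6 genes. The low end rests on 36 to 51 reads per library in NC_siRNA. The RefSeq span of Dusp6 overlaps that of Gm34921 by 626 bases, and Gm34921 has no row. Whether reads there were counted by strand is not given in the sources used here.

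Dusp4 (gene ID 319520, chromosome 8, 34807610 to 34819894) encodes a nuclear phosphatase of ERK and JNK. Its libraries had 105, 92.4 and 91.0 CPM in Hif1a_siRNA_Dox and 62.2, 71.9 and 68.8 CPM in Dox, and 69.8, 69.3 and 68.9 CPM in Hif1a_siRNA. NC_siRNA libraries had 15.4, 14.2 and 18.2 CPM, and Control libraries 23.2, 24.0 and 21.6 CPM. Dox and Hif1a_siRNA, each with a single agent, overlapped near the same level, Hif1a_siRNA_Dox lay above both, and the groups with neither the drug nor the Hif1a siRNA lay below. Dusp1 (gene ID 19252, chromosome 17, 26505591 to 26508472), an immediate early gene whose nuclear product acts on p38, JNK and ERK, had 35.7, 37.7 and 28.8 CPM in Hif1a_siRNA_Dox and 14.8, 22.3 and 17.4 CPM in Dox. It had 11.4, 14.0 and 13.6 CPM in Hif1a_siRNA, 18.7, 13.9 and 17.6 CPM in NC_siRNA, and 11.3, 13.8 and 13.8 CPM in Control. Only Hif1a_siRNA_Dox was free of overlap with the next group in the order of Dusp1 levels, and the highest mean was 2.63-fold the lowest, the narrowest range of the 6 genes.

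Spry1 (gene ID 24063, chromosome 3, 37639947 to 37644599) encodes a Sprouty inhibitor of receptor tyrosine kinase signalling. It had 30.8, 30.5 and 29.1 CPM in Hif1a_siRNA_Dox and 16.2, 19.5 and 19.2 CPM in Dox. The values were 15.6, 17.1 and 14.1 CPM in Hif1a_siRNA, 4.24, 4.80 and 5.13 CPM in NC_siRNA, and 4.85, 6.48 and 5.88 CPM in Control. As for Dusp4, Dox and Hif1a_siRNA overlapped and Hif1a_siRNA_Dox lay above them; NC_siRNA and Control overlapped at the bottom. Spry2 (gene ID 24064, chromosome 14, 105891947 to 105896819), a second Sprouty inhibitor, had 32.1, 30.8 and 33.8 CPM in Hif1a_siRNA_Dox and 14.1, 15.6 and 14.2 CPM in Dox. In Hif1a_siRNA it had 7.68, 7.25 and 8.60 CPM, in NC_siRNA 19.9, 19.3 and 18.9 CPM, and in Control 4.94, 7.05 and 5.11 CPM. Unlike Spry1, Spry2 was second highest in NC_siRNA, above Dox, and no neighbouring groups overlapped.

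Spred1 (gene ID 114715, chromosome 2, 117121071 to 117182279) encodes a membrane adaptor that brings neurofibromin to Ras and so favours its inactive form. It had 15.0, 15.9 and 16.4 CPM in Hif1a_siRNA_Dox and 9.85, 11.1 and 12.4 CPM in Dox. In Hif1a_siRNA it had 57.9, 53.7 and 65.4 CPM, in NC_siRNA 41.5, 43.6 and 38.2 CPM, and in Control 15.3, 17.7 and 18.6 CPM. The 2 siRNA groups without doxorubicin were highest, Hif1a_siRNA_Dox overlapped Control, and Dox was lowest. Per kb of exon in the GENCODE M21 basic annotation, which allows levels to be set between genes, Dusp4 was highest in Hif1a_siRNA_Dox at 35.1 CPM per kb and Spred1 lowest at 2.32 CPM per kb, with the other 4 between 10.4 and 15.9 CPM per kb. In Control, Dusp4 was again highest at 8.38 CPM per kb and Dusp6 lowest at 1.11 CPM per kb.

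**Figure D1:**
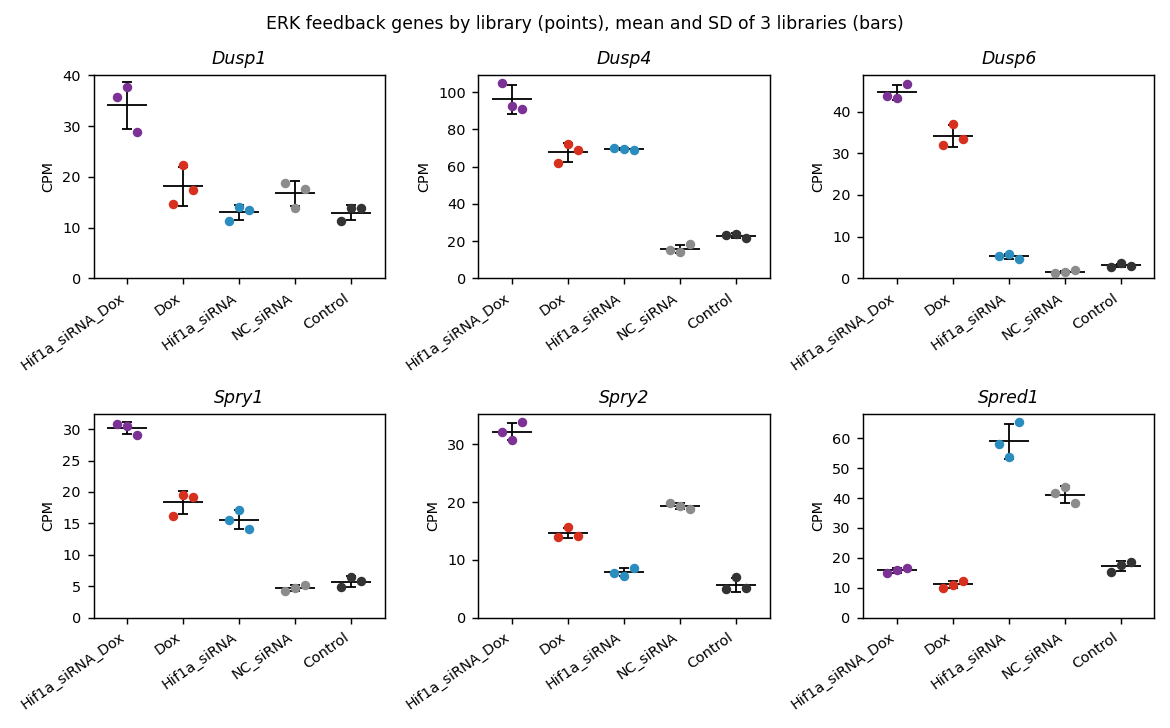
Levels of the 6 listed genes (vertical axes, CPM, each from 0 with its own scale) in the 5 groups, 1 point per library with the mean (long bar) and SD of 3 libraries. Dusp4, Dusp6, Spry1 and Spry2 are highest in Hif1a_siRNA_Dox, as is Dusp1, while Spred1 is highest in Hif1a_siRNA at 59.0 ± 5.92 CPM and lowest in Dox at 11.1 ± 1.26 CPM.

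The first question was what doxorubicin did to these genes in cells without siRNA. Dusp6 rose 11.0-fold in Dox over Control, and Spry1, Dusp4 and Spry2 rose 3.19-fold, 2.95-fold and 2.57-fold. Dusp1 rose 1.40-fold, and Spred1 alone of the 6 fell, to a level 1.55-fold lower in Dox. In the edgeR quasi-likelihood fit the log2 fold change of Dusp6 was 3.46 ± 0.14 (SE; adjusted p = 7.3e-17). Spry1 had 1.68 ± 0.13 (edgeR adjusted p = 2.3e-11), Dusp4 1.56 ± 0.09 (edgeR adjusted p = 1.5e-13) and Spry2 1.36 ± 0.13 (edgeR adjusted p = 1e-09). That of Dusp1 was 0.49 ± 0.15 (edgeR adjusted p = 0.0055) and that of Spred1 -0.63 ± 0.11 (edgeR adjusted p = 1.5e-05). Thus 5 of 6 rose and 1 fell, where 43.9% of all tested genes were called higher and 39.8% lower, 83.8% in all. The median log2 fold change was 1.46 over the 6 genes and 0.10 over all tested genes. Without Dox replicate 2, Dusp1 was at 0.31 and no longer passed (edgeR adjusted p = 0.069). The median over all tested genes depended on the scaling: with upper-quartile factors it was 0.22 in this comparison, and in Hif1a_siRNA_Dox over Hif1a_siRNA it was 0.19 with those factors and 0.04 with TMM.

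Several measured features moved with doxorubicin beside these genes. The summed level of Col1a1 and Pdgfra was 61.8 to 85.7 CPM in Hif1a_siRNA_Dox and 37.2 to 60.7 CPM in Dox, against 3.93 to 5.01 CPM in Hif1a_siRNA, 2.49 to 3.08 CPM in NC_siRNA and 6.22 to 6.62 CPM in Control. The melanocyte markers summed to 29682 to 36513 CPM in Hif1a_siRNA_Dox and 39692 to 46325 CPM in Dox, against 8997 to 9408 CPM in Hif1a_siRNA, 8288 to 8956 CPM in NC_siRNA and 13419 to 14554 CPM in Control. Within that list directions were mixed: in Dox over Control 5 of 7 rose, Mlana by 2.40 ± 0.08, and 2 fell, Sox10 at -2.81 ± 0.08 and Tyr at -0.43 ± 0.11. In Hif1a_siRNA_Dox over Hif1a_siRNA 4 rose, and Sox10 (-2.60 ± 0.08), Tyr (-1.73 ± 0.11) and Mitf (-0.71 ± 0.09) fell. Mitochondrial genes took 3.90% to 5.07% of reads in Hif1a_siRNA_Dox and 3.37% to 4.07% in Dox, against 1.64% to 2.11% in Hif1a_siRNA, 1.79% to 2.06% in NC_siRNA and 1.38% to 1.47% in Control. The part of these features in the results was not tested.

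Changes with doxorubicin also differed by gene length, and Spred1, the gene that fell, has a span of 61.2 kb, against 2.88 to 12.3 kb for the other 5. Among the 12702 tested genes with a span, those over 50 kb had a median log2 fold change of -0.18 in Dox over Control with 47.5% called lower. Those of up to 5 kb had 0.14, with 33.1% called lower, but the highest median, 0.34 with 50.9% called higher, was that of genes over 5 and up to 20 kb, which include Dusp4. In Hif1a_siRNA_Dox over Hif1a_siRNA the medians were -0.38 over 50 kb, with 53.9% lower, and 0.40 up to 5 kb, with 26.7% lower. In NC_siRNA over Control they ran the other way, at 0.23 over 50 kb and -0.47 up to 5 kb, as they did in Hif1a_siRNA_Dox over Dox, at 0.07 over 50 kb and -0.17 up to 5 kb. The part of gene length in the Spred1 values was not tested.

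The other genes of the route split between directions in Dox over Control. Of 6 other MAP kinase phosphatase genes Dusp9 had no row, and of the 5 tested 2 rose and 2 fell, all by less than Dusp4 and Dusp6 did: Dusp7 by 0.44 ± 0.13, Dusp16 by 0.42 ± 0.12, Dusp10 by -0.57 ± 0.19 and Dusp8 by -0.42 ± 0.15 on the log2 scale. Dusp2 was at 0.37 ± 0.21 and did not pass (edgeR adjusted p = 0.11). Under upper-quartile scaling 3 of the 5 were called higher and 1 lower. Spred3 rose by 0.87 ± 0.15, and Spred2, which like Spred1 binds neurofibromin, was at 0.21 ± 0.14 (edgeR adjusted p = 0.17). With upper-quartile factors both were called higher.

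Upstream, 11 of 22 tested ERK cascade genes rose and 9 fell, with a median log2 fold change of 0.13. Braf, the Raf kinase most often mutated in melanoma, averaged 13.7 ± 1.61 CPM in Dox and 233 ± 28.9 CPM in Control, and the receptor gene Met averaged 37.0 ± 1.73 CPM in Dox and 394 ± 35.6 CPM in Control. Both fell, with log2 fold changes of -4.08 for Braf (edgeR adjusted p = 4.9e-20) and -3.41 for Met (edgeR adjusted p = 2.7e-21). Downstream, 8 of 11 other ERK output genes rose and 3 fell, with a median of 1.11. Ccnd1, which encodes the cyclin that opens the cell cycle, averaged 86.3 ± 6.56 CPM in Dox and 4.36 ± 0.376 CPM in Control, a log2 fold change of 4.31 ± 0.12. Ier3, an immediate early gene, averaged 19.4 ± 0.446 CPM in Dox and 787 ± 61.1 CPM in Control, a log2 fold change of -5.34 ± 0.08. The output genes therefore held large changes in both directions.

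Among 10 other ETS factors 7 rose and 2 fell in Dox, with a median of 1.03. Etv1, of the same PEA3 subfamily as Etv4 and Etv5, averaged 35.4 ± 2.42 CPM in Dox and 4.12 ± 0.172 CPM in Control, a log2 fold change of 3.10 ± 0.14 (edgeR adjusted p = 8.5e-16). Ets1 fell to 75.01 ± 4.83 CPM in Dox, against 292 ± 5.68 CPM in Control. Of 8 kinases of the JNK and p38 routes, the other MAP kinase routes that Dusp1 acts on, 4 rose and 3 fell, and with median-ratio size factors (RLE) in place of TMM 3 and 3. Mapk14, the p38 alpha kinase, had a log2 fold change of 2.60 ± 0.08 and Map2k7, a JNK activator, one of -2.75 ± 0.08.

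**Figure D2:**
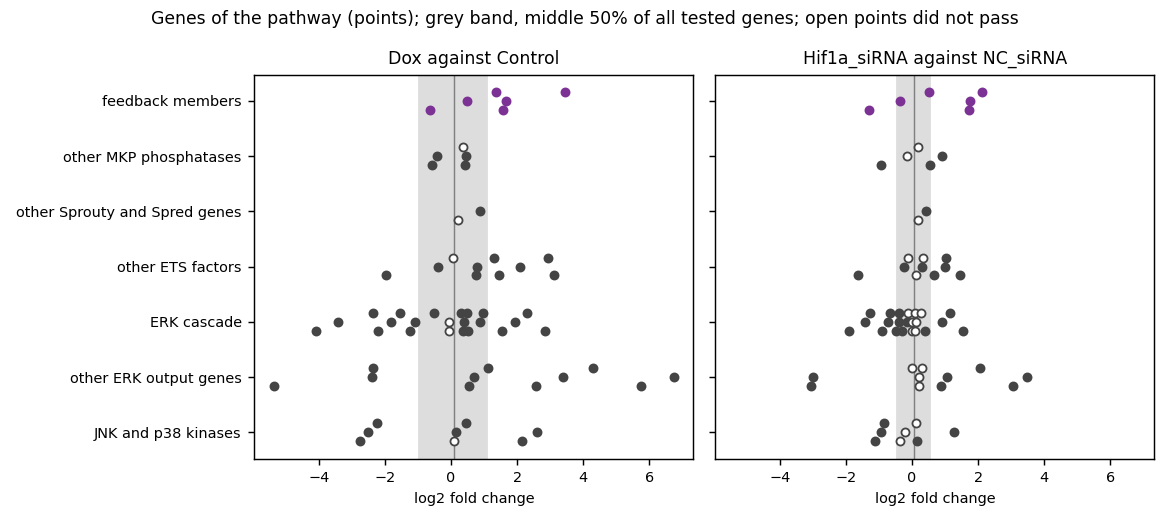
Log2 fold changes (horizontal axes) of the 6 listed genes (purple) and of the other genes of each list (dark points; open points did not pass) in Dox over Control (left) and Hif1a_siRNA over NC_siRNA (right), with the middle 50% of all tested genes as a grey band. In Dox over Control 4 of the 6 genes lie above that band, and the cascade and output lists spread to both sides of it.

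After the Hif1a siRNA, doxorubicin was again followed by higher Dusp6, which rose 8.42-fold in Hif1a_siRNA_Dox over Hif1a_siRNA. Spry2 rose 4.11-fold, Dusp1 2.63-fold, Spry1 1.94-fold and Dusp4 1.39-fold, and Spred1 fell to a level 3.74-fold lower in Hif1a_siRNA_Dox. The log2 fold changes were 3.07 ± 0.12 for Dusp6, 2.04 ± 0.12 for Spry2, 1.39 ± 0.15 for Dusp1, 0.95 ± 0.12 for Spry1, 0.47 ± 0.09 for Dusp4 and -1.90 ± 0.10 for Spred1. The edgeR adjusted p ran from 1.2e-16 for Dusp6 to 2.4e-05 for Dusp4. So 5 rose and 1 fell, where 42.6% of all tested genes were called higher and 41.6% lower, 84.2% in all, and the median was 1.17 over the 6 genes and 0.04 over all genes. None of the 6 overlapped between these groups, and the share of all tested genes free of overlap is not given here.

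Of the other phosphatases, Dusp2 rose by 0.82 ± 0.20, Dusp7 and Dusp8 fell by 0.94 and 0.83 on the log2 scale, and Dusp10 (0.27 ± 0.18) and Dusp16 (-0.14 ± 0.11) did not pass the edgeR test. The median of these 5 was -0.14, and 0.01 under upper-quartile scaling, which called 2 higher and 2 lower. Spred2 and Spred3 rose, by 0.86 ± 0.14 and 0.80 ± 0.14, so that Spred1 was the only tested Spred gene to fall here. All 22 cascade genes passed, 10 higher and 12 lower, but with upper-quartile factors 10 were higher and 11 lower. Among the lower was Met, at 41.2 ± 1.77 CPM in Hif1a_siRNA_Dox and 228 ± 5.79 CPM in Hif1a_siRNA. Of 11 output genes 8 rose and 3 fell: Fos averaged 120 ± 9.55 CPM in Hif1a_siRNA_Dox and 3.18 ± 0.237 CPM in Hif1a_siRNA, while Phlda1 averaged 26.3 ± 2.58 CPM in Hif1a_siRNA_Dox and 336 ± 9.16 CPM in Hif1a_siRNA. ETS factors split 5 higher and 4 lower (6 and 3 with upper-quartile factors), with Elk3 at 3.15 ± 0.14 and Ets1 at -2.17 ± 0.06, and the JNK and p38 kinases 3 and 3, with Mapk14 at 1.90 ± 0.08 and Map2k3, a p38 activator, at 1.40 ± 0.08.

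Whether the drug effect itself differed between the arms was tested as the effect after the Hif1a siRNA (Hif1a_siRNA_Dox minus Hif1a_siRNA) minus the effect without siRNA (Dox minus Control). It differed for 5 of the 6 genes. For Dusp1 and Spry2 the difference was positive, at 0.91 ± 0.21 (edgeR adjusted p = 0.00085) and 0.68 ± 0.18 (edgeR adjusted p = 0.002) on the log2 scale. It was negative for Spred1, at -1.27 ± 0.15 (edgeR adjusted p = 2.3e-07), Dusp4, at -1.09 ± 0.13 (edgeR adjusted p = 1.4e-07), and Spry1, at -0.72 ± 0.17 (edgeR adjusted p = 0.0011). Over all tested genes 26.3% were called positive and 32.3% negative, 58.6% in all. For Dusp6 the difference was -0.39 ± 0.18 and did not pass (edgeR adjusted p = 0.075); it passed without Control replicate 2 (-0.50, edgeR adjusted p = 0.036) and without Hif1a_siRNA replicate 3 (-0.49, edgeR adjusted p = 0.037). In the groups that did not receive the drug, Dusp4 stood at 69.3 ± 0.433 CPM in Hif1a_siRNA and 23.0 ± 1.24 CPM in Control. Spry1 stood at 15.6 ± 1.5 CPM in Hif1a_siRNA and 5.74 ± 0.824 CPM in Control, and Spry2 at 7.84 ± 0.688 CPM in Hif1a_siRNA and 5.70 ± 1.18 CPM in Control. Spred1 stood at 59.0 ± 5.92 CPM in Hif1a_siRNA and 17.2 ± 1.73 CPM in Control. Dusp1 stood at 13.0 ± 1.41 CPM in Hif1a_siRNA and 13.0 ± 1.45 CPM in Control. Dusp6 stood at 5.29 ± 0.647 CPM in Hif1a_siRNA and 3.10 ± 0.418 CPM in Control. These levels enter the difference themselves, and their part in it was not tested. The arms also differ in transfection, which cannot be told apart from the knockdown here.

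Among the other lists, 9 of 10 ETS factors were called with a negative difference and none with a positive one. The remaining 1 did not pass, and the median was -0.58 against -0.06 over all genes. With RLE or upper-quartile factors 8 were called negative. Etv3, a repressor, was at -1.19 ± 0.16 and Elk1, which ERK phosphorylates, at -0.93 ± 0.11. Most other lists held both signs: 1 positive and 2 negative of 5 phosphatases, with Dusp7 at -1.38 ± 0.18, Dusp16 at -0.56 ± 0.16 and Dusp10 at 0.84 ± 0.26, 8 and 7 of 22 cascade genes, 3 and 6 of 11 output genes and 2 and 3 of 8 JNK and p38 kinases (2 and 2 with RLE factors). Fos and Ier3 held the smallest p among the output genes, at 4.70 ± 0.19 and 3.91 ± 0.11, and Ptpn11, the phosphatase SHP2 that promotes Ras activation, at -1.22 ± 0.13 and Met at 0.94 ± 0.10 among the cascade genes. Spred2 was at 0.65 ± 0.20 (edgeR adjusted p = 0.0076), the opposite sign to Spred1, and Spred3 was at -0.07 ± 0.20 and did not pass (edgeR adjusted p = 0.78).

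**Figure D3:**
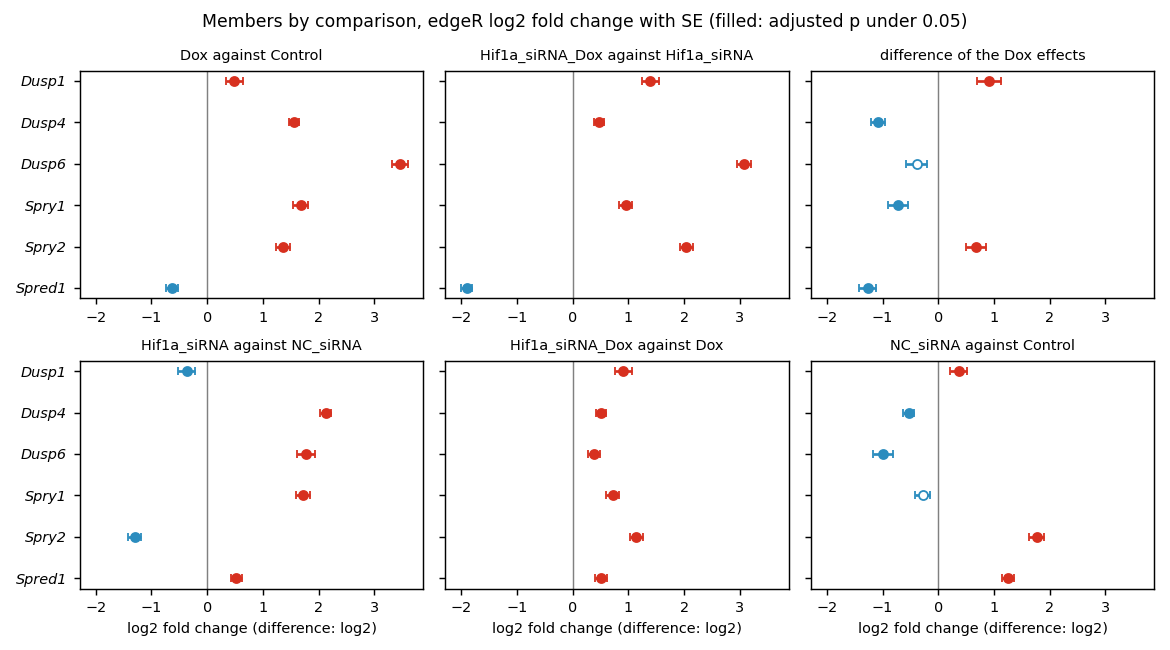
Log2 fold changes with SE (horizontal axes; for the upper right panel the difference of 2 log2 fold changes) of the 6 listed genes in the 6 comparisons; filled points passed at an adjusted p under 0.05. Dusp6 has the largest values with doxorubicin (3.46 and 3.07), Spred1 is negative in both doxorubicin comparisons, and all 6 are positive in Hif1a_siRNA_Dox against Dox.

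The knockdown was compared with the negative control siRNA in cells without the drug. Dusp4 rose 4.35-fold in Hif1a_siRNA over NC_siRNA, Dusp6 3.40-fold, Spry1 3.29-fold and Spred1 1.43-fold, while Spry2 was 2.47-fold lower. The log2 fold changes were 2.12 ± 0.09 for Dusp4 (edgeR adjusted p = 2.6e-15), 1.77 ± 0.16 for Dusp6, 1.72 ± 0.13 for Spry1, 0.52 ± 0.10 for Spred1 (edgeR adjusted p = 5.9e-05) and -1.30 ± 0.12 for Spry2 (edgeR adjusted p = 1.5e-09). Dusp1 passed at -0.37 ± 0.15 (edgeR adjusted p = 0.034), but its libraries overlapped. That call was lost without NC_siRNA replicate 1 (-0.28, edgeR adjusted p = 0.15), NC_siRNA replicate 3 (-0.33, edgeR adjusted p = 0.097) or Hif1a_siRNA replicate 1 (-0.29, edgeR adjusted p = 0.14). With it, 4 rose and 2 fell, where 36.4% of all tested genes were called higher and 31.2% lower, 67.7% in all, and the median was 1.12 over the 6 genes and 0.06 over all genes.

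Of the other phosphatases, Dusp16, which acts on JNK and p38, rose by 0.92 ± 0.11 and Dusp7, specific for ERK, by 0.55 ± 0.12. Dusp10 fell by 0.94 on the log2 scale, and Dusp2 (0.18 ± 0.21) and Dusp8 (-0.15 ± 0.13) did not pass. Spred2 rose by 0.43 ± 0.14, and Spred3 was at 0.18 ± 0.14 and did not pass (edgeR adjusted p = 0.26). The cascade list had more lower than higher calls, 11 against 4 of 22, with a median of -0.14: the adaptor gene Shc1 averaged 146 ± 3.96 CPM in Hif1a_siRNA and 390 ± 3.64 CPM in NC_siRNA, whereas Ptpn11 averaged 131 ± 4.94 CPM in Hif1a_siRNA and 45.4 ± 0.942 CPM in NC_siRNA. Among output genes 5 of 11 rose and 2 fell, with Phlda1 at 2.04 ± 0.07 and Ier3 at -3.07 ± 0.07. ETS factors split 5 higher and 2 lower of 10, with Ets1 at 1.02 ± 0.06 and Ets2 at 1.44 ± 0.12, and JNK and p38 kinases 2 and 3 of 8, with Map2k3 at 1.26 ± 0.09 and Map2k7 at -1.11 ± 0.08. With RLE factors the JNK and p38 kinases split 1 higher and 4 lower, and with upper-quartile factors 2 and 4.

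Under doxorubicin, all 6 genes were higher in Hif1a_siRNA_Dox than in Dox. Their libraries did not overlap between these groups. How often that held over all tested genes was not counted, so it does not set the 6 apart. Spry2 rose 2.20-fold, Dusp1 1.88-fold, Spry1 1.64-fold, Dusp4 and Spred1 1.42-fold each and Dusp6 1.31-fold. The log2 fold changes were 1.14 ± 0.12 for Spry2, 0.91 ± 0.15 for Dusp1, 0.72 ± 0.12 for Spry1, 0.51 ± 0.09 for Dusp4, 0.51 ± 0.11 for Spred1 and 0.38 ± 0.11 for Dusp6, with edgeR adjusted p from 7.4e-08 for Spry2 to 0.0071 for Dusp6. Over all tested genes 21.5% were called higher and 20.8% lower, 42.2% in all, and the median was 0.61 over the 6 genes and 0.01 over all genes. This comparison shares the Dox and Hif1a_siRNA_Dox libraries with those above, so the values are set side by side and their likeness is not a result.

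All 5 other tested phosphatases also rose in Hif1a_siRNA_Dox over Dox, with a median of 0.73: Dusp16 by 0.84 ± 0.12, Dusp2 by 0.75 ± 0.20, Dusp8 by 0.73 ± 0.14, Dusp10 by 0.68 ± 0.19 and Dusp7 by 0.50 ± 0.13, with edgeR adjusted p of 0.0065 or less. Dusp16 averaged 98.9 ± 6.85 CPM in Hif1a_siRNA_Dox and 55.3 ± 6.94 CPM in Dox. Spred2 rose by 0.96 ± 0.14, and Spred3 was at 0.24 ± 0.14 and did not pass (edgeR adjusted p = 0.17). Of 11 output genes 6 rose and none fell: Myc averaged 46.2 ± 6.36 CPM in Hif1a_siRNA_Dox and 21.1 ± 0.883 CPM in Dox, and Egr1, an immediate early factor, 209 ± 28.9 CPM in Hif1a_siRNA_Dox and 94.9 ± 21.2 CPM in Dox. Of 22 cascade genes 15 did not pass, 4 rose and 3 fell, with Ptpn11 at 0.45 ± 0.09 and Hras at -0.46 ± 0.08, and with size factors (RLE) 7 rose and 3 fell. ETS factors split 6 higher and 2 lower of 10, with Ets1 at 0.62 ± 0.06 and Elk1 at -0.59 ± 0.08, and JNK and p38 kinases 3 and 3 of 8, with Map2k3 at 0.35 ± 0.08 and Mapkapk2, a kinase that p38 activates, at -0.33 ± 0.07. The JNK and p38 split was 3 and 2 with RLE factors and 2 and 3 with upper-quartile factors. With RLE factors 8 output genes rose and none fell.

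NC_siRNA was compared with Control to show what transfection brought. Spry2 rose 3.40-fold in NC_siRNA over Control and Spred1 2.39-fold, while Dusp6 was 1.99-fold lower and Dusp4 1.44-fold lower. The log2 fold changes were 1.76 ± 0.13 for Spry2 (edgeR adjusted p = 5.8e-11), 1.25 ± 0.10 for Spred1, -0.996 ± 0.18 for Dusp6 and -0.53 ± 0.10 for Dusp4 (edgeR adjusted p = 4.9e-05). Dusp1 passed at 0.37 ± 0.15 (edgeR adjusted p = 0.037), but not without Control replicate 1 (0.28, edgeR adjusted p = 0.15), NC_siRNA replicate 1 (0.28, edgeR adjusted p = 0.15) or NC_siRNA replicate 3 (0.33, edgeR adjusted p = 0.1), nor under upper-quartile scaling (0.32, edgeR adjusted p = 0.061). Spry1 was at -0.28 ± 0.14 with overlapping libraries and did not pass (edgeR adjusted p = 0.082); it passed without Control replicate 1 (-0.39, edgeR adjusted p = 0.027) and under upper-quartile scaling (-0.33, edgeR adjusted p = 0.04). Counts were 3 higher and 2 lower, where 33.1% of all tested genes were called higher and 33.7% lower, 66.8% in all, and upper-quartile scaling turned them to 2 and 3. The median over the 6 genes was 0.04, and -0.01 under that scaling. For Spry2, then, Hif1a_siRNA averaged 7.84 ± 0.688 CPM and NC_siRNA 19.4 ± 0.483 CPM, both above the 5.70 ± 1.18 CPM of Control.

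Of the 5 other phosphatases 4 rose in NC_siRNA and none fell: Dusp7 by 1.34 ± 0.13, Dusp8 by 1.30 ± 0.14, Dusp10 by 0.77 ± 0.18 and Dusp16 by 0.48 ± 0.12, with Dusp2 at 0.13 ± 0.21 (edgeR adjusted p = 0.62). Neither Spred2 nor Spred3 passed. Among output genes 4 of 11 rose and 6 fell, with Mcl1, a survival gene, at 1.47 ± 0.12 and Ier3 at -0.67 ± 0.07, and among cascade genes 10 of 22 rose and 4 fell, with the adaptor Gab1 at 1.34 ± 0.10 and Map2k2, which encodes a MEK, at -0.85 ± 0.07. ETS factors split 6 higher and 1 lower of 10, with Etv3 at 1.37 ± 0.11 and Elk3 at 1.36 ± 0.15, and JNK and p38 kinases 3 and 2 of 8, with Mapk14 at 1.26 ± 0.08 and Mapkapk2 at -0.64 ± 0.07. With upper-quartile factors the JNK and p38 kinases split 3 higher and 4 lower, the cascade genes 10 and 6, and the ETS factors 5 and 1.

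For the listed gene with the highest mean CPM in each family, a level not set per length, the genes with the most similar pattern were sought among 9946 genes, by the root mean square distance between centred log2 CPM over the 15 libraries. The nearest to Dusp4 were Cdt1, a DNA replication licensing gene, at 0.160, the cell cycle repressor gene E2f7 at 0.202, and Spry1 at 0.210, where the median over all candidates was 1.13. Cdt1 averaged 56.9 ± 5.63 CPM in Hif1a_siRNA_Dox, 40.7 ± 3.79 CPM in Dox, 43.6 ± 1.99 CPM in Hif1a_siRNA, 9.15 ± 0.749 CPM in NC_siRNA and 15.8 ± 1.87 CPM in Control. The other members lay much farther from Dusp4, at 0.881 for Dusp1, 1.14 for Dusp6 and for Spry2, and 1.53 for Spred1. The nearest to Spred1 were the kinase gene Cdk17 at 0.150, Fnip2, whose product binds folliculin, at 0.173, and Nr1d2, a nuclear receptor gene of the circadian clock, at 0.179, with a median of 1.03 over candidates. Cdk17 averaged 17.5 ± 2.18 CPM in Hif1a_siRNA_Dox, 11.9 ± 0.542 CPM in Dox, 57.5 ± 2.08 CPM in Hif1a_siRNA, 38.1 ± 3.54 CPM in NC_siRNA and 19.1 ± 3.74 CPM in Control. The other listed members lay 1.23 to 2.60 from Spred1. These distances describe 15 libraries of 5 groups and carry no test.

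**Figure D4:**
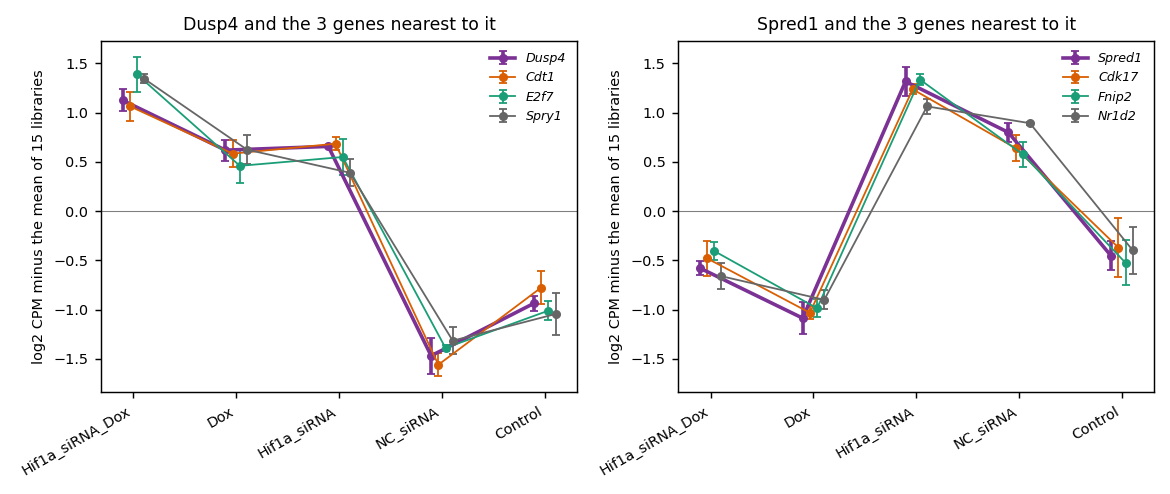
Centred log2 CPM (vertical axes; mean and SD of 3 libraries per group, lines only join the groups) of Dusp4 with Cdt1, E2f7 and Spry1 (left) and of Spred1 with Cdk17, Fnip2 and Nr1d2 (right). Dusp4 and its neighbours are lowest in NC_siRNA and highest in Hif1a_siRNA_Dox, and Spred1 and its neighbours are highest in Hif1a_siRNA and lowest in Dox.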

How the data were processed

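The authors deposited 15 tables, each with 1 library's raw counts by gene and no normalization. The submitters' processing notes list HISAT2 2.1.0, Bowtie2 2.3.4.1, StringTie 2.1.3b, Trimmomatic 0.38, FastQC 0.11.7 and the mm10 build, with no role or order. RNA came from RNeasy kits and libraries from a TruSeq Stranded mRNA kit, per the labels' protocols. Replicates carry biological replicate labels, but no source used here ties them to independent cultures, and the p-values reflect only how these libraries vary, which may be technical.

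The tables list genes by group. A gene in the table of any group but Control reached 10 reads in 3 or more of the 6 libraries formed by that group with Control. Testing used the 12721 genes present in all 5 lists and set aside 451 others. Each listed member had more than 10 reads in every library. Gene IDs without a symbol were named from the RefSeq table of GRCm38.p6. Counting error at 23825110 or more reads per library weighs mainly on low genes such as Dusp6 in NC_siRNA.

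The fit was edgeR 4.0.16 in R 4.3.3 with TMM scaling, a group term, robust quasi-likelihood F tests, Benjamini-Hochberg adjustment over all tested genes within each of 6 comparisons and a threshold of 0.05. The SE is the log2 fold change divided by the square root of F. The low-count filter (10 reads) removed 0 genes. The procedure was tested on simulated data.

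The members and lists were chosen with earlier results of these data known. Named genes were the members, every gene of a list with 5 or fewer tested, and otherwise the 2 genes of smallest adjusted p per list and comparison. A gene that this rule would name is not reported here, and it remains in every fit and count. Alternatives were RLE factors, DESeq2 1.42.0, a threshold of 0.01, no filter, and at least 1 CPM in 3 libraries as the filter. Others were a fit of only the compared groups, a replicate block and leaving out each library. Upper-quartile factors were added after seeing the data.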

Additional observations from a re-analysis of the deposited data

Results flagged for a closer look

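The effect of doxorubicin differed between cells given the Hif1a siRNA and cells without siRNA for 5 listed genes, by the interaction term of the edgeR fit. Over all tested genes 58.6% were called in this comparison, 26.3% positive and 32.3% negative. The difference, the effect after the siRNA minus that without it, was 0.91 for Dusp1 and 0.68 for Spry2 on the log2 scale. It was -0.72 for Spry1, -1.09 for Dusp4 and -1.27 for Spred1. The sign of each held under every alternative tried, and each passed the test in every one. The arms also differ in transfection, and the cause was not tested.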

How the results depend on the processing

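Of 540 values of listed genes under alternatives, 526 kept their direction and side of the threshold, 10 no longer passed, 4 newly passed and 0 changed sign. All 14 concerned Dusp1, Spry1 in NC_siRNA over Control, or Dusp6 in the difference of the drug effects. The fit with no filter repeats the main fit, since the filter removed 0 genes, so its values could not differ. The threshold of 0.01 uses the main estimates, so no sign could change there. Of 270 counts 266 stayed within 1.5 times. The count of listed genes lower in Hif1a_siRNA than in NC_siRNA, 2, became 1 at an adjusted p under 0.01 and ran from 1 to 2 when a library was left out, through the loss of Dusp1. Replicate numbers did not pair the libraries: the correlations of their deviations ran from -0.16 to 0.064, and 2 of 15 libraries correlated best with their own number. With a replicate block 10623 genes were called in Dox over Control, 10654 without it, and no call of a listed gene changed. With 3 libraries a group and an SE of 0.15, the Dusp1 changes in transfection and in knockdown lay close to the threshold. A smaller change with a smaller SE could pass, as for Ets1 in NC_siRNA over Control (-0.19 ± 0.06, edgeR adjusted p = 0.0077).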
